A study of Rattus norvegicus with 10 samples.

Results

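Collagen genes were compared between the mammary glands of ACI rats and of BN rats that had all been treated with E2. The members are all genes whose symbol in the platform annotation is Col, a number, the letter a and a second number (as in *Col1a1*), taken from probe sets that the annotation pairs with 1 symbol. This rule found 58 probe sets of 41 genes, among 31042 probe sets and 14217 genes tested. A gene with several probe sets was represented by the one with the highest mean over all 10 arrays. The 5 ACI (ACI/SegHsd) and 5 BN (Brown Norway) rats were females. All had received E2 (17β-estradiol) without a break from implants under the skin, placed at 9 weeks of age, for 12 weeks. RNA came from whole glands of single rats, with 1 Affymetrix Rat Genome 230 2.0 array per rat. Rats without E2 are not analysed here, so each difference lies between the strains under E2 and is not a response to E2. The extraction text of the BN samples speaks of ACI rats, while their strain field gives Brown Norway.

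Collagens are matrix proteins whose 3 chains wind into a triple helix, and 1 gene encodes each chain. Fibrillar collagens form the cable-like fibrils of connective tissue, the FACIT collagens (fibril-associated collagens with interrupted triple helices) sit on the fibrils, type IV collagens form the sheet of basement membranes, type VI collagens form beaded filaments, and some collagens span the cell membrane. In the mammary gland, fibroblasts lay down most fibrillar collagen around the ducts, and a basement membrane underlies the epithelium and surrounds vessels and adipocytes.

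The deposited values are log2 expression levels, on which a difference of 1 is a factor of 2. Levels of different genes come from different probes and were not set against each other. A gene is called near background in a strain when all of that strain's rats lie under 4, and a difference from such a strain is a lower bound. The arrays had medians of 3.35 to 3.53 and held 14067 to 14596 probe sets above 4, and their number limits the precision of every value. The BN rats 4 and 5 lay apart from the other BN rats on the second principal component, at -49.8 and -90.7 against 23.2 to 49.2. Rats 4 and 5 of each strain carry animal IDs of another series (H) than rats 1 to 3 (S), and results that rest on these rats are given with and without them. Skeletal muscle genes differed widely between rats: the mean over 11 of them was lowest in ACI rat 1 (6.90) and ran from 9.74 to 11.4 in the other ACI rats, whereas it was 3.82, 7.27, 3.78, 7.53 and 10.4 in BN rats 1 to 5. Strain and the separate deposit of each strain's arrays cannot be told apart.

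More collagen genes had a lower mean level in ACI glands than a higher one, and most of the 41 were not called. Of the 41 genes, the mean was lower in ACI rats for 26, higher for 8 and the same for 7. Over all 14217 genes it was lower for 6396, higher for 6196 and the same for 1625. The median difference was -0.15 on the log2 scale, against 0 over all genes tested. Of the 41, 17 were near background in both strains and 24 exceeded 4 on some array, *Col6a6* and *Col9a2* of these only in a BN rat. At an adjusted p under 0.05 (limma, Benjamini-Hochberg over all probe sets), 3 collagen genes were higher in ACI (*Col2a1*, *Col9a3*, *Col17a1*) and 7 were lower in ACI (*Col5a1*, *Col12a1*, *Col14a1*, *Col4a5*, *Col15a1*, *Col8a2*, *Col13a1*), while 31 were not called. Of all genes tested, 8.29% were called higher in ACI and 9.12% higher in BN. The strains did not overlap in 3 collagen genes higher in ACI and 7 higher in BN, and over all genes the shares were 8.3% and 8.32%. At an unadjusted p under 0.05 the counts were 3 and 11, where the shares of all genes were 16% and 16.3%.

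**Figure D1:**
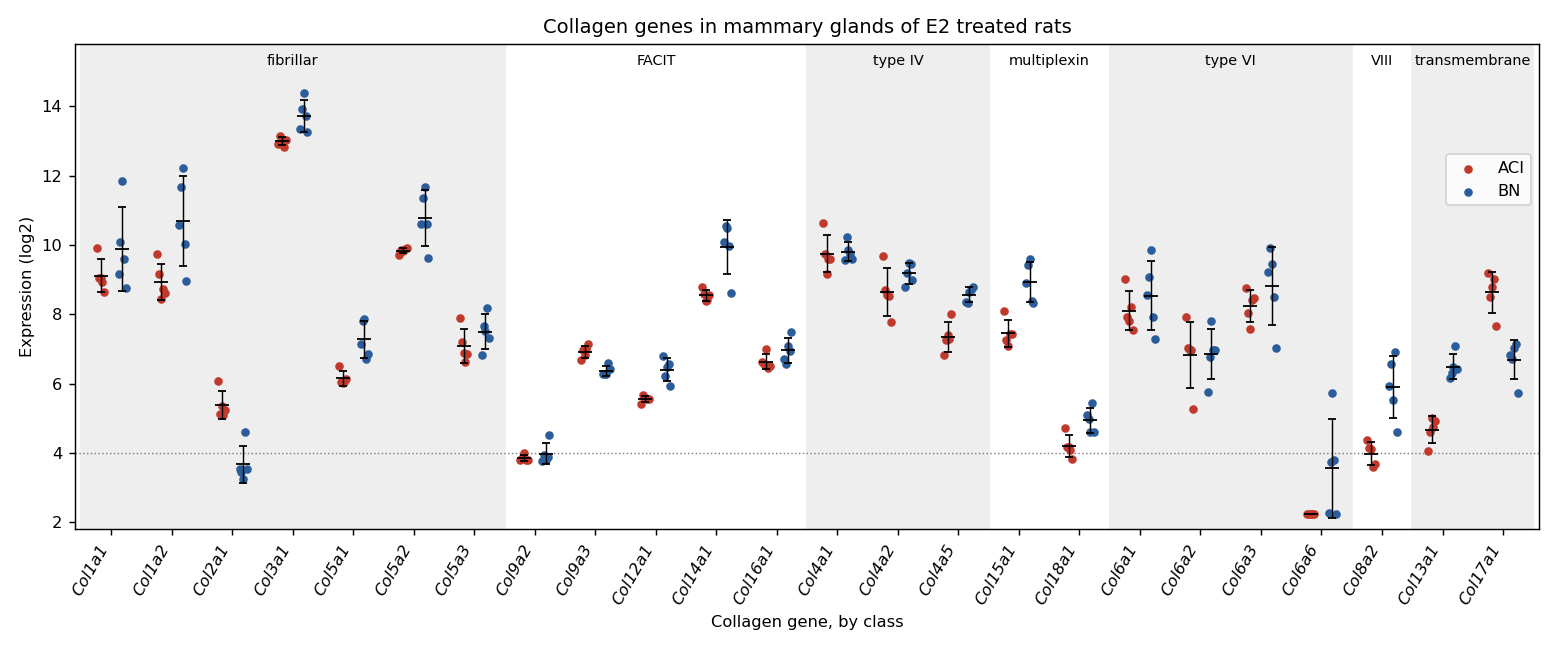
Log2 expression of the 24 collagen genes that exceeded 4 on some array, by class on the horizontal axis (VIII is type VIII), with 1 point per rat (ACI red, BN blue, rats 1 to 5 from left to right), the mean and the SD as bars, and a dotted line at 4. ACI points lie below all BN points in *Col5a1*, *Col15a1* and *Col13a1* and above them in *Col2a1*, *Col9a3* and *Col17a1*, and the BN points of *Col1a1*, *Col1a2* and *Col6a3* are spread widely.

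**Figure D2:**
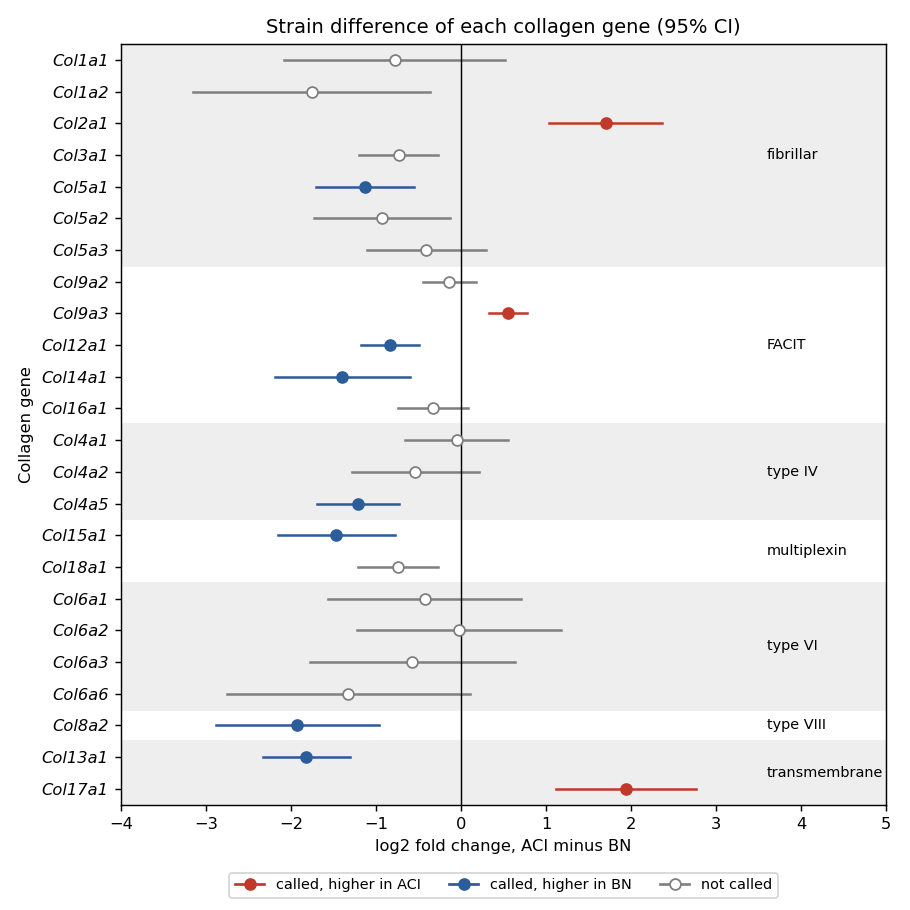
Log2 fold change (ACI minus BN, horizontal axis) with its 95% confidence interval for the same 24 genes, by class. Filled red points are genes called higher in ACI, filled blue points genes called higher in BN and open points genes not called, and the intervals of *Col1a2*, *Col3a1*, *Col5a2* and *Col18a1*, not called, also lie wholly left of 0.

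Of the 11 fibrillar collagen genes, *Col5a1* was called lower in ACI, *Col2a1* was called higher in ACI and 9 were not called, and the median difference was -0.41. *Col1a1* and *Col1a2* encode the chains of type I collagen, the main collagen of fibrous tissue. *Col1a1* had 9.91, 9.04, 9.04, 8.92 and 8.64 in ACI rats 1 to 5, against 9.16, 10.09, 11.86, 9.61 and 8.75 in BN rats 1 to 5. BN rat 3 stood highest, BN rat 5 lay below 4 of the ACI rats, and the strains overlapped. The difference of -0.78 (SE 0.57) was not called (adjusted p = 0.493 from limma). A second probe set of *Col1a1* differed by -1.32 and was not called either (adjusted p = 0.118 from limma). On it, BN rats 1 to 4 lay above every ACI rat, and BN rat 5 lay among the ACI values. *Col1a2* had 9.73, 9.15, 8.43, 8.74 and 8.63 in ACI rats, against 10.57, 11.68, 12.23, 10.03 and 8.97 in BN rats. BN rat 5 was again the lowest of its strain and lay within the ACI values, and the other 4 BN rats lay above every ACI rat. Its difference was -1.76 (SE 0.61), with an adjusted p of 0.107 from limma and an exact two-sided permutation p of 0.0238. Without BN rat 5 it was -2.19 with an adjusted p of 0.0257. A second probe set of *Col1a2* differed by -1.28 and was not called (adjusted p = 0.224 from limma).

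*Col3a1*, which encodes type III collagen, the partner of type I in pliable tissue, had 12.92, 13.14, 13.04, 12.84 and 13.02 in ACI rats, against 13.36, 13.93, 14.38, 13.72 and 13.25 in BN rats. Every BN rat lay above every ACI rat, BN rat 3 highest. The difference was -0.74 (SE 0.20), just outside the threshold (adjusted p = 0.051 from limma), and the exact two-sided permutation p of 0.00794 is the smallest that 5 rats against 5 allow. Leaving out BN rat 3 brought it to -0.57 (adjusted p = 0.0457) and leaving out BN rat 5 to -0.86 (adjusted p = 0.0235), and it was not called without any 1 of the other 8 rats. *Col5a1*, a chain of type V collagen, which helps to start fibrils and set their width, had 6.52, 6.05, 6.03, 6.04 and 6.13 in ACI rats, against 7.15, 7.81, 7.88, 6.72 and 6.86 in BN rats. The strains did not overlap, and BN rats 2 and 3 were the highest. The difference was -1.13 (SE 0.25, adjusted p = 0.021 from limma), and the call was lost without ACI rat 2, 3 or 4, with adjusted p up to 0.0573.

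*Col5a2*, the other main type V chain, had 9.72, 9.86, 9.82, 9.89 and 9.92 in ACI rats, against 10.61, 11.36, 11.68, 10.62 and 9.62 in BN rats. BN rat 5 lay below all ACI rats, and the other BN rats lay above all of them. Its difference was -0.94 (SE 0.35) and was not called (adjusted p = 0.134 from limma), and it was -1.23 (adjusted p = 0.0125) without BN rat 5. *Col5a3* averaged 7.09 ± 0.49 in ACI rats and 7.50 ± 0.50 in BN rats (SD, n = 5 each) and was not called (adjusted p = 0.511 from limma). *Col3a1* and *Col5a2* are neighbours on rat chromosome 9, with 38189 bases between them in the RefSeq annotation of the GRCr8 build.

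*Col2a1*, the chain of type II collagen known from cartilage, had 6.07, 5.13, 5.36, 5.09 and 5.25 in ACI rats, against 3.55, 3.46, 3.24, 4.61 and 3.54 in BN rats. All ACI rats lay above all BN rats, and only BN rat 4 reached 4 in its strain. The difference was 1.70 (SE 0.29, adjusted p = 0.00647 from limma). This call rests on 1 of the gene's 3 probe sets, whose name marks it as shared by transcripts of 1 gene. The other 2 probe sets were near background and differed by 0 and -0.01. Of the 5 cartilage and bone markers measured (*Acan*, *Matn1*, *Hapln1*, *Bglap*, *Ibsp*), the mean ran from 2.23 to 2.25 in ACI rats and was 2.23 in BN rats, the lowest level in these data, and none was above background. The remaining fibrillar genes *Col11a1*, *Col11a2*, *Col24a1* and *Col27a1* were near background in both strains.

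Of the 9 FACIT genes measured, *Col12a1* and *Col14a1* were called lower in ACI, *Col9a3* was called higher in ACI, and the median difference was 0. *Col12a1*, which encodes type XII collagen on the surface of type I fibrils, had 5.41, 5.67, 5.58, 5.56 and 5.56 in ACI rats, against 6.80, 6.21, 6.47, 6.56 and 5.94 in BN rats. The ACI rats lay within a narrow band below every BN rat. The difference was -0.84 (SE 0.15, adjusted p = 0.00789 from limma) and stayed called without any 1 rat, with adjusted p up to 0.0245. This call rests on 1 of the gene's 3 probe sets. The others were near background in both strains and differed by 0.01 and 0.004.

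*Col14a1*, which encodes type XIV collagen, another fibril surface protein, had 8.80, 8.59, 8.38, 8.41 and 8.55 in ACI rats, against 10.08, 10.55, 10.50, 9.97 and 8.62 in BN rats. BN rat 5 lay among the ACI values, and the other 4 BN rats lay well above them. The difference was -1.40 (SE 0.35, adjusted p = 0.0338 from limma). The call held in only 1 of the 10 fits that leave out 1 rat: it was -1.73 (adjusted p = 5.1e-04) without BN rat 5, and the adjusted p reached 0.0834 in the other fits. A second probe set of the gene differed by -1.83 (adjusted p = 0.0153).

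*Col9a3*, a chain of type IX collagen known from cartilage, had 6.69, 6.98, 6.83, 6.99 and 7.14 in ACI rats, against 6.29, 6.27, 6.28, 6.60 and 6.42 in BN rats. All ACI rats lay above all BN rats, by 0.55 on average (SE 0.097, adjusted p = 0.00716 from limma). Of its partner chains, *Col9a1* was near background in both strains, and *Col9a2* averaged 3.84 ± 0.09 in ACI rats and 3.98 ± 0.30 in BN rats (adjusted p = 0.596 from limma). *Col16a1*, which encodes type XVI collagen, averaged 6.63 ± 0.22 in ACI rats and 6.96 ± 0.35 in BN rats and was not called (adjusted p = 0.327). *Col19a1*, *Col20a1* and *Col22a1* were near background in both strains.

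Among the 5 type IV genes measured, *Col4a5* was called lower in ACI and the other 4 were not called. *Col4a1* and *Col4a2* encode the chains found in nearly all basement membranes. They lie head to head on rat chromosome 16, with 76 bases between their starts, and the whole stretch is shown because both genes share it, beside the 250 upstream bases of the RefSeq promoter window of *Col4a5*, which was called. The annotated *Col4a5* gene begins 108 bases before the start that this window uses, so the last 108 bases shown, with the marked motif, lie inside the gene. Sequences are from RefSeq, build GRCr8, read 5′ to 3′ on the strand given. Capitals mark the letters GGGCGG (the GC box), found on either strand, where CCGCCC is the same motif read on the other strand.
Col4a1-Col4a2, chr16:84885521-84885596, plus strand: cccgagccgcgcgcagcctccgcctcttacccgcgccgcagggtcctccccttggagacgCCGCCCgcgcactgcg
Col4a5, chrX:109907109-109907358, plus strand: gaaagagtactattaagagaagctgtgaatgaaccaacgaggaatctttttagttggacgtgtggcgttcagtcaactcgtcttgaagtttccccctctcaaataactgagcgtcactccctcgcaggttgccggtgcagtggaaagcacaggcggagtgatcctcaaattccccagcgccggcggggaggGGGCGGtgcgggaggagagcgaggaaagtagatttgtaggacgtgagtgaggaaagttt
Each stretch holds 1 such motif. The shared stretch of 76 bases between *Col4a1* and *Col4a2* holds neither CCAAT nor TATAAA, and the *Col4a5* stretch of 250 bases holds neither. The 250-base windows of *Col4a1* and *Col4a2* reach beyond the shared stretch, and each holds 1 CCAAT and no TATAAA.

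*Col4a1* had 10.63, 9.74, 9.16, 9.61 and 9.61 in ACI rats, against 9.56, 10.24, 9.87, 9.75 and 9.60 in BN rats. The strains overlapped throughout, with the highest and the lowest value both in ACI rats. The difference was -0.05 (SE 0.26, adjusted p = 1 from limma), and its 95% confidence interval runs from -0.66 to 0.55. *Col4a2* had 9.68, 8.71, 8.55, 8.52 and 7.77 in ACI rats, against 8.79, 9.20, 9.48, 9.46 and 8.99 in BN rats. ACI rat 1 was the highest of all, the other 4 ACI rats lay below every BN rat, and the difference of -0.54 (SE 0.33) was not called (adjusted p = 0.385). When 1 rat was left out it ran from -0.80 (without ACI rat 1) to -0.32, called in none of the 10 fits. The 95% confidence interval of *Col4a2*, -1.28 to 0.21, overlaps that of *Col4a5*, -1.69 to -0.74, and the genes were not tested against each other. *Col4a5*, whose chain occurs in fewer basement membranes, had 6.82, 7.25, 7.40, 7.28 and 8.01 in ACI rats, against 8.36, 8.32, 8.64, 8.71 and 8.80 in BN rats. No ACI rat reached the lowest BN rat, and ACI rat 5 came nearest. The difference was -1.21 (SE 0.21, adjusted p = 0.0066 from limma) and stayed called without any 1 rat, with adjusted p up to 0.0222. *Col4a4* and *Col4a6* were near background in both strains.

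The multiplexins of the basement membrane zone, type XV and type XVIII collagen, lie around vessels, muscle and epithelia and release antiangiogenic fragments. *Col15a1* had 8.10, 7.25, 7.08, 7.43 and 7.43 in ACI rats, against 8.90, 9.42, 9.59, 8.39 and 8.33 in BN rats. Every ACI rat lay below every BN rat, with ACI rat 1 closest to the BN values. The difference was -1.47 (SE 0.30, adjusted p = 0.0153 from limma), called without any 1 rat, with adjusted p up to 0.0438, and a second probe set differed by -0.75 (adjusted p = 0.0517). *Col18a1* had 4.71, 4.18, 4.18, 4.10 and 3.84 in ACI rats, against 5.11, 4.97, 4.60, 5.44 and 4.61 in BN rats. ACI rat 1 overlapped the lowest BN rats. The difference was -0.74 (SE 0.21, adjusted p = 0.0513 from limma), and it passed the test without ACI rat 1, BN rat 3 or BN rat 5. A second probe set of *Col18a1* was called, at -0.53 (adjusted p = 0.0243). Endothelial markers ran the same way: the mean over 7 of them was 6.34 to 7.15 in ACI rats and 7.65 to 8.60 in BN rats, with 4 of the 7 called lower in ACI, and their part in the differences of *Col15a1*, *Col18a1* and *Col4a5* was not tested. In whole glands, fewer cells of a type and less RNA per cell cannot be told apart.

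None of the 5 type VI genes measured was called. Type VI collagen forms the beaded filaments around fibroblasts, adipocytes and muscle fibres, and its usual chains are encoded by *Col6a1*, *Col6a2* and *Col6a3*. *Col6a1* had 9.02, 7.91, 7.82, 8.22 and 7.56 in ACI rats, against 8.55, 9.07, 9.85, 7.92 and 7.29 in BN rats. The lowest value of all was in BN rat 5 and the highest in BN rat 3. *Col6a2* had 7.92, 7.03, 6.97, 6.97 and 5.28 in ACI rats, against 5.77, 6.77, 7.80, 6.97 and 6.97 in BN rats. Each strain had a single low rat, ACI rat 5 and BN rat 1. *Col6a3* had 8.75, 8.03, 7.57, 8.41 and 8.46 in ACI rats, against 9.21, 9.90, 9.45, 8.49 and 7.04 in BN rats. BN rats 1 to 3 lay above all ACI rats and BN rat 5 below all of them. The differences were -0.43 (SE 0.50), -0.02 (SE 0.52) and -0.57 (SE 0.53) for *Col6a1*, *Col6a2* and *Col6a3*, with adjusted p of 0.66, 1 and 0.596 from limma. *Col6a3* turned to 0.67 within ID series H, and without BN rats 4 and 5 it was -1.28 (adjusted p = 0.0278). *Col6a6* was at the lowest value, 2.23, in all 5 ACI rats, against 2.28, 3.75, 5.72, 3.80 and 2.23 in BN rats. A single BN rat, rat 3, exceeded 4, and the gene was not called (adjusted p = 0.238). *Col6a5* was near background in both strains.

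*Col8a2*, a chain of the type VIII collagen that forms hexagonal networks in vessel walls and the cornea, had 4.38, 4.15, 4.12, 3.59 and 3.67 in ACI rats, against 5.92, 6.56, 5.54, 6.91 and 4.61 in BN rats. All BN rats lay above all ACI rats, BN rat 4 highest and BN rat 5 nearest to ACI. Its difference was -1.93 (SE 0.42, adjusted p = 0.0195 from limma). Since ACI rats 4 and 5 were under 4, the difference may be understated. The call was lost without ACI rat 4 or BN rat 2, with adjusted p up to 0.0551. *Col8a1*, *Col10a1* and the anchoring fibril gene *Col7a1* were near background in both strains.

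Of the 4 transmembrane genes, *Col17a1* was called higher in ACI and *Col13a1* lower. *Col13a1* encodes type XIII collagen, found at cell adhesions and at the neuromuscular junction, and *Col17a1* encodes type XVII collagen of the hemidesmosome, which ties basal epithelial cells to the basement membrane. The 250 bases before each start are shown because these genes differed in opposite directions and both stretches hold the letters TATAAA. These letters occur in 12.5% of the collagen windows and in 12.9% of all windows. They were matched at any place in the window, in *Col13a1* near the end farthest from the start, so they do not mark a TATA box. Capitals mark TATAAA and CCAAT, where ATTGG is CCAAT read on the other strand.
Col13a1, chr20:30466801-30467050, minus strand: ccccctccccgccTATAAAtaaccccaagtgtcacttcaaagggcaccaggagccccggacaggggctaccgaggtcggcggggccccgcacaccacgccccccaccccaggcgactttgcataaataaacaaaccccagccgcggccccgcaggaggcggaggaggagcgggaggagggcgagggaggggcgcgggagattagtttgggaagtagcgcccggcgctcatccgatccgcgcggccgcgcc
Col17a1, chr1:256518858-256519107, minus strand: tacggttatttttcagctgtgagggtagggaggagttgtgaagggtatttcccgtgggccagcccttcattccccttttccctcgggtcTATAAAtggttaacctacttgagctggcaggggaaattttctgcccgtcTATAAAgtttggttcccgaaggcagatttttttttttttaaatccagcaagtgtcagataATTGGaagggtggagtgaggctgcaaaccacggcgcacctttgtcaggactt
TATAAA occurs 1 time before *Col13a1* and 2 times before *Col17a1*, where CCAAT occurs 1 time. Neither stretch holds GGGCGG.

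*Col13a1* had 4.05, 4.62, 5.02, 4.74 and 4.93 in ACI rats, against 6.17, 6.32, 6.49, 7.08 and 6.41 in BN rats. More than 1 log2 unit lay between the highest ACI rat and the lowest BN rat. The difference was -1.82 (SE 0.23, adjusted p = 0.00139 from limma), the smallest adjusted p among the collagens, and stayed called without any 1 rat, with adjusted p up to 0.00576. *Col17a1* had 9.19, 8.49, 8.79, 9.03 and 7.66 in ACI rats, against 6.84, 6.70, 7.03, 7.14 and 5.74 in BN rats. Rat 5 was the lowest in both strains, and ACI rat 5 still lay above every BN rat. The difference was 1.94 (SE 0.36, adjusted p = 0.00924 from limma), called without any 1 rat, with adjusted p up to 0.0293. Basal and myoepithelial markers averaged 8.31 to 8.74 in ACI rats and 7.81 to 8.45 in BN rats over 7 genes, 1 of them called higher in ACI. The mean was higher in ACI for 5 of the 7 and lower for 2, the keratins *Krt14* and *Krt17*. *Acta2*, *Myh11* and *Cnn1* of this list are also in the list of pericyte and smooth muscle markers. Luminal markers averaged 11.5 to 12.0 in ACI rats and 10.6 to 11.1 in BN rats over 8 genes, 4 of them called higher in ACI. The luminal means were higher in ACI for 7 genes and lower for 1. The part of these cell types in the *Col17a1* difference was not tested. *Col23a1* and *Col25a1*, and *Col26a1* outside these classes, were near background in both strains.

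Over all collagens, RefSeq promoter windows were found for 32 of the 41 genes, and the 250 bases before the start that each window uses were searched on both strands. In 14 of the 32 that start lies inside the annotated gene and not at its end. For the collagens 1 window per gene was counted, although *Col24a1* has 3 and *Col6a5* has 2, whereas the shares of all windows count every window of a gene. GGGCGG was present in 18 of the 32 windows (56.2%) and in 30.5% of all 33469 windows. CCAAT was present in 9 (28.1%) and in 34.0% of all windows. TATAAA was present in 4 (12.5%), those of *Col1a2*, *Col10a1*, *Col13a1* and *Col17a1*, and in 12.9% of all windows. *Col8a2* held 5 copies of GGGCGG, the most of any collagen window counted. These matches are a description of letters in a window.

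Rat by rat, no animal was the highest or the lowest of its strain in every collagen. Among the 24 genes above 4, BN rat 3 was the highest BN rat in 10, BN rat 4 in 7, and BN rat 5 was the lowest in 12. Among the 7 fibrillar genes of these, BN rat 3 was highest in 5 and BN rat 5 lowest in 4, and their median deviations from the BN mean were 0.65 and -0.48. In the other strain, ACI rat 1 was highest or tied for highest in 16 of the 24 genes and in 5 of the 7 fibrillar ones. Its median deviations were 0.45 and 0.69, and it was lowest or tied for lowest in 7 of the 24. Both counts over the 24 include *Col6a6*, at 2.23 in all 5 ACI rats. The lowest count also includes *Col9a2*, at 3.79 in ACI rats 1, 4 and 5. The skeletal muscle mean was lowest of its strain in the same ACI rat 1 (6.90) and BN rat 3 (3.78) and highest of its strain in BN rat 5 (10.4). BN rat 1 had nearly the same muscle mean (3.82) as BN rat 3, and was the highest BN rat in 1 of the 24 genes and the lowest in 6. The part of muscle in the order of the rats was not tested. Genes of 1 rat share its RNA sample, so these counts describe the arrays.

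**Figure D3:**
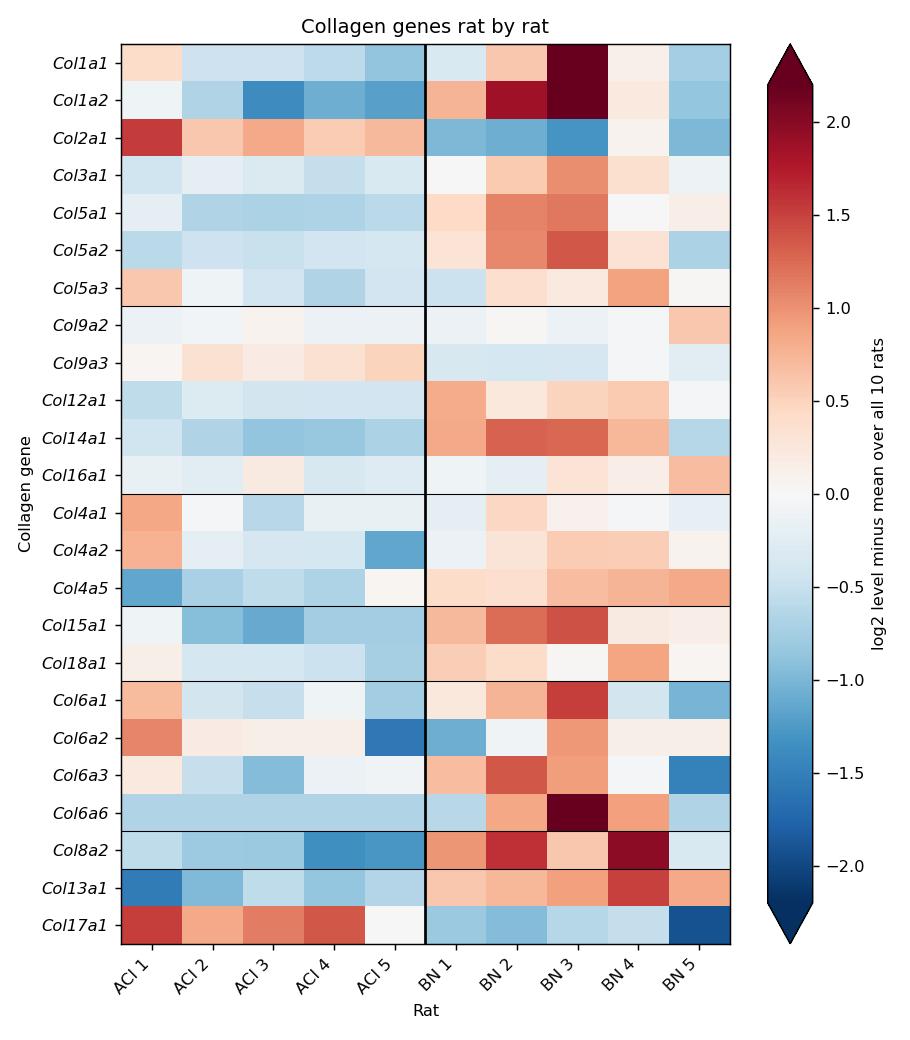
Log2 level of the 24 genes in each rat minus the gene's mean over all 10 rats, as colour (red above, blue below; the scale ends at 2.2 on both sides), with genes by class in rows and ACI rats left of BN rats. BN rat 3 is dark red in *Col1a1* and *Col1a2*, where BN rat 5 is blue, and *Col4a5* and *Col13a1* are red in all 5 BN rats.

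The collagens varied more among BN rats than among ACI rats, as did most genes. The SD was larger in BN for 17 of the 24 genes and for all 7 fibrillar ones, with a median SD of 0.38 in ACI and 0.54 in BN over the 24. Over the 10098 genes above 4 on some array, 74.1% had the larger SD in BN, with median SDs of 0.24 in ACI and 0.39 in BN. *Col5a2* showed the contrast plainly, with an SD of 0.08 in ACI rats and 0.80 in BN rats.

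Leaving out single rats moved the number of collagens called higher in BN and not the number called higher in ACI. Genes higher in ACI stayed at 3 in each of the 10 fits that left out 1 rat. Genes lower in ACI numbered 4 without ACI rat 4, when 5.58% of all genes were called higher in ACI and 6.17% higher in BN. They numbered 11 without BN rat 5, when *Col1a2*, *Col3a1*, *Col5a2* and *Col18a1* joined the 7 and the shares of all genes were 8.1% and 11.7%. Called in all 10 fits were *Col2a1*, *Col9a3*, *Col12a1*, *Col4a5*, *Col15a1*, *Col13a1* and *Col17a1*. Within ID series S (3 rats per strain) the same 3 and 7 genes were called, when 8.28% of all genes were called higher in ACI and 11.5% higher in BN. Within series H (2 rats per strain) none was called in either direction, against 0.141% and 0.253% of all genes. Without BN rats 4 and 5, a fit chosen after seeing the data, 3 genes were higher in ACI and 11 lower, against 10.5% and 15.6% of all genes.

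**Figure D4:**
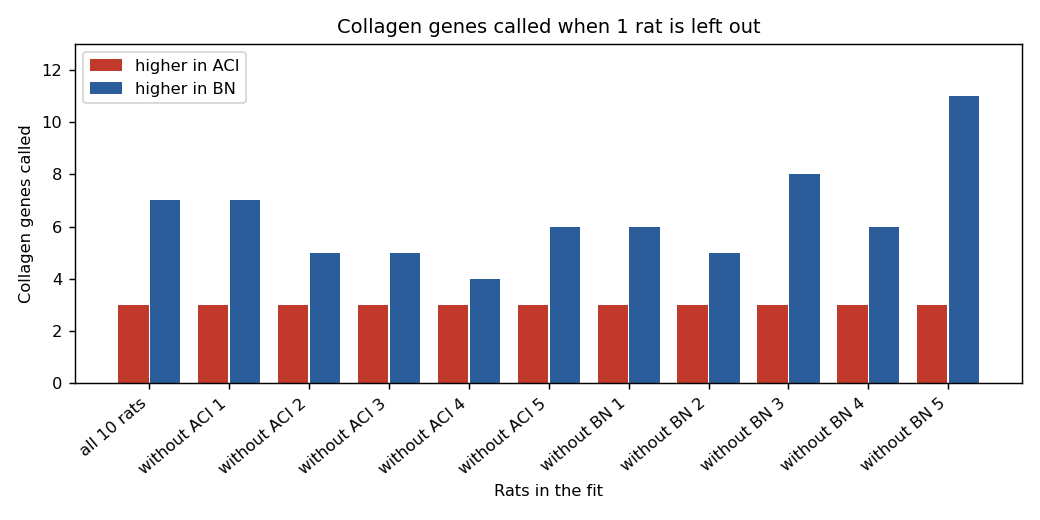
Number of collagen genes called at an adjusted p under 0.05 (limma) with all 10 rats and with each rat left out in turn, higher in ACI in red and higher in BN in blue. The red bars stay at 3, and the blue bars run from 4 without ACI rat 4 to 11 without BN rat 5.

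Several probe sets were present for 14 collagen genes, and for 8 of these more than 1 probe set exceeded 4 on some array. All such probe sets of a gene had the same sign in 7 of the 8 genes and the same call in 4. By probe set, 3 were called higher in ACI and 10 lower, of 58, against 6.79% and 5.87% of all probe sets. The second probe set of *Col5a2* was called, at -1.41 (adjusted p = 0.0435), where the first was not, and the second of *Col5a1* was not, at -1.49 (adjusted p = 0.0825), where the first was.

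Genes that make, bind or break down collagen were described from lists of known members. The median difference was below 0 in each list except that of TGF-beta factors, only slightly so for biosynthesis, against 0 over all genes. Of all genes tested, 8.29% were called higher in ACI and 9.12% higher in BN, and these shares apply to the counts called in each list below. In the list of biosynthesis inside the cell (20 of 21 measured), 1 gene was called higher in ACI and 3 lower, with a median difference of -0.10. *Plod2*, a lysyl hydroxylase that prepares collagen for cross-linking, averaged 3.77 ± 0.49 in ACI rats and 6.20 ± 0.44 in BN rats, a difference of -2.43 (SE 0.29, adjusted p = 0.00112 from limma). *Fkbp10*, a collagen chaperone, differed by -1.49 (adjusted p = 0.00217) and *P3h3*, a prolyl 3-hydroxylase, by -0.69 (adjusted p = 0.0338). *Mia2*, which helps to export large cargo such as collagen from the endoplasmic reticulum, averaged 10.56 ± 0.16 in ACI rats and 9.32 ± 0.18 in BN rats, a difference of 1.24 (adjusted p = 2.5e-04).

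In the list of processing and cross-linking outside the cell (6 of 13 measured), the median was -0.76 and 1 gene was called: *Pcolce*, which speeds the removal of the procollagen C-terminal propeptide, differed by -1.46 (SE 0.18, adjusted p = 0.00124 from limma). Among proteoglycans and matrix proteins that bind collagen (22 of 25 measured), 9 were called lower in ACI and none higher, with a median of -1.02. At an unadjusted p under 0.05 these counts were 14 and 0, where 16.3% of all genes were lower and 16% higher in ACI. The largest differences called were those of *Thbs2*, a matricellular protein that affects fibril assembly, at -2.51 (adjusted p = 4.3e-05), *Omd*, a small leucine-rich proteoglycan, at -2.47 (adjusted p = 0.0211), and *Fbln1*, a matrix glycoprotein, at -2.16 (adjusted p = 0.00523). *Thbs2* and *Fbln1* were near background in all ACI rats, and their differences are lower bounds.

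Of the collagen receptors (6 of 11 measured), 1 was called in each direction. *Itga1*, the α1 integrin chain that binds collagen, averaged 6.18 ± 0.56 in ACI rats and 3.63 ± 0.69 in BN rats, a difference of 2.55 (SE 0.39, adjusted p = 0.00367 from limma). *Ddr2*, a receptor tyrosine kinase for fibrillar collagen, averaged 7.71 ± 0.49 in ACI rats and 9.25 ± 0.37 in BN rats, a difference of -1.54 (SE 0.27, adjusted p = 0.00699). Of 11 genes of collagen breakdown, all measured, 6 were called lower in ACI and none higher, with a median of -1.38. At an unadjusted p under 0.05 these counts were 8 and 0, where 16.3% of all genes were lower and 16% higher in ACI. The list holds proteinases and their inhibitors, and both kinds were among the 6. *Ctsk*, the collagen-degrading cathepsin K, differed by -3.06 (SE 0.41, adjusted p = 0.00207), *Mmp9*, a gelatinase near background in all ACI rats, by -2.41 (adjusted p = 0.00217), and *Timp1*, a metalloproteinase inhibitor, by -1.65 (adjusted p = 0.035).

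Of the 8 TGF-beta ligands and matrix-regulating factors measured, of 9 listed, 1 was called in each direction and the median was 0.12. *Pdgfc*, a growth factor for stromal cells, averaged 6.25 ± 0.91 in ACI rats and 3.43 ± 0.61 in BN rats, a difference of 2.82 (SE 0.48, adjusted p = 0.00605 from limma). *Ccn2*, a matricellular factor known as connective tissue growth factor, averaged 9.67 ± 0.37 in ACI rats and 11.14 ± 0.40 in BN rats, a difference of -1.46 (SE 0.24, adjusted p = 0.00496).

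**Figure D5:**
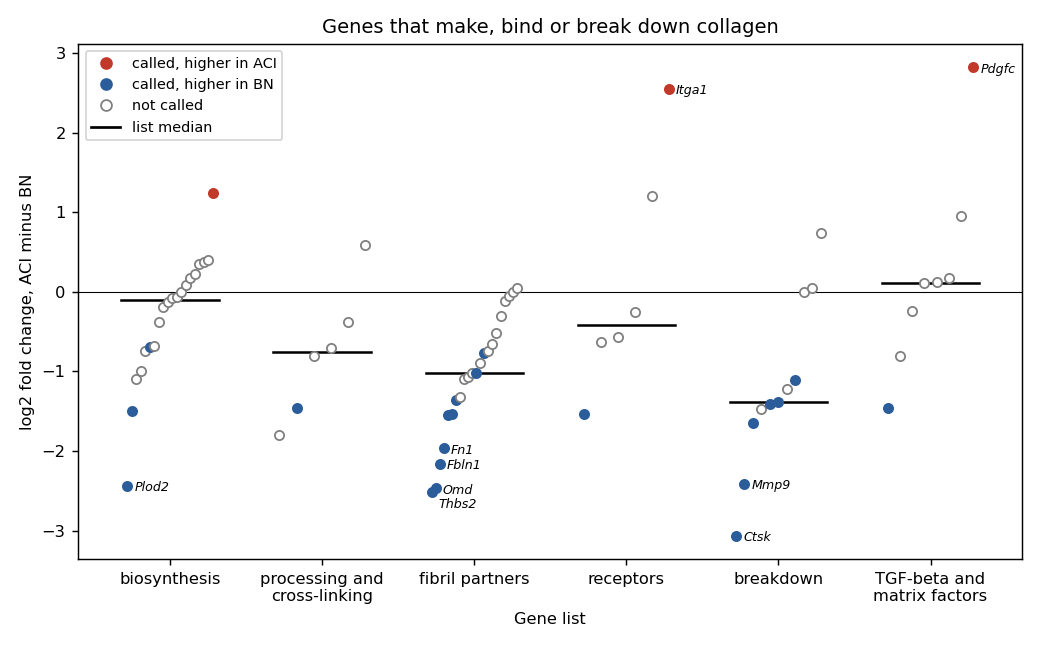
Log2 fold change (ACI minus BN, vertical axis) of each measured gene in 6 lists of genes that make, bind, sense or break down collagen, with called genes filled (red higher in ACI, blue higher in BN), genes not called open and the list median as a bar. The medians of the fibril partner and breakdown lists, -1.02 and -1.38, lie lowest.

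Fibroblast markers moved with these genes in part, and the lists share members. *Dcn*, *Lum* and *Dpt* are also in the fibril partner list, and *Fap* is also in the breakdown list. Their mean over 12 genes was 7.03 to 7.85 in ACI rats and 7.92 to 8.60 in BN rats, with 3 called lower in ACI (*Pdgfra*, *Mfap5*, *Scara5*), 1 higher (*Thy1*) and *Prrx1* and *Twist2* at background in both strains. *Clec3b* and *Pi16* lay far higher in BN rats 4 and 5 than in BN rats 1 to 3, and without them, a choice made after seeing the data, the mean was 7.52 to 7.87 in ACI rats and 7.72 to 8.58 in BN rats, so that the strains overlapped. Markers of B and plasma cells averaged 3.03 to 3.23 in ACI rats and 5.19 to 9.82 in BN rats over 5 genes, all called lower in ACI. Macrophage markers averaged 8.79 to 9.37 in ACI rats and 9.49 to 10.1 in BN rats over 8 genes, 4 of them called lower in ACI. The means of 2 macrophage markers, *C1qa* and *C1qb*, were higher in ACI, that of *C1qb* by 1.20, and neither was called. Adipocyte markers averaged 9.68 to 10.7 in ACI rats and 10.3 to 11.0 in BN rats over 8 genes, with 1 called lower in ACI. The part of these cell types in the collagen differences was not tested.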

How the data were processed

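Per the labels, total RNA of whole mammary glands from 5 ACI and 5 BN rats was hybridized to 1 array per rat. Per the submitters' processing notes, the authors made the deposited log2 values with GCRMA 2.18.1, which corrects background by probe sequence and normalizes arrays to each other. The sources used here do not name the arrays that were normalized as a set. Values have 2 decimals, and the lowest one, 2.23, was held by 30.6% to 33.3% of the probe sets on an array.

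Gene names came from the platform annotation and were brought up to date with a RefSeq table matched on gene ID (20758 of 20826 probe sets with 1 symbol matched). Of the 31042 probe sets tested, 436 with several symbols and 9780 with none entered no gene count, and 57 controls were left out. *Col21a1*, *Col4a3*, *Col6a4* and *Col28a1* were listed and not analysed here.

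Strains were compared with limma 3.58.1 (R 4.3.3), lmFit and eBayes at default settings with strain as the only term and Benjamini-Hochberg adjustment over all 31042 probe sets. Adjusted p-values come from limma throughout. Exact permutation tests took all 252 arrangements of 5 rats against 5. The script was tested on simulated data, in which it called 27% of the changes of 1 log2 unit and 75% of those of 2. A gene that was not called may therefore still differ.

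The members and all lists were chosen with earlier results of these data known, so no list was tested as a whole. Lists of collagen biosynthesis, processing, fibril partners, receptors, breakdown and TGF-beta factors were described by counts and medians, and lists of fibroblasts, pericytes and smooth muscle, basal and luminal epithelium, endothelium, adipocytes, skeletal muscle, cartilage and bone, Schwann cells, keratinocytes, B and plasma cells and macrophages by their mean level per rat. Values per rat were given for called collagens with a strain mean of at least 6 or without overlap, and for the main chains of types I, III, IV and VI, and of each list up to 3 called genes with the largest change in each direction were named. *Col5a2*, *Col18a1* and *Col6a6* were shown by rat, and *Pdgfra*, *Mfap5*, *Scara5*, *Thy1*, *Prrx1*, *Twist2*, *Clec3b*, *Pi16*, *C1qa*, *C1qb*, *Krt14* and *Krt17* named, after their values were known.

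Alternative settings were a replicate block, the animal ID series as a block or alone, a filter or a floor at a mean of 4, quantile normalization, centring, a trended robust variance, array weights, the methods' t-test (Student's, two-sided), the mean of a gene's probe sets, leaving out shared probe sets, and leaving out each rat.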

Additional observations from a re-analysis of the deposited data

Results flagged for a closer look

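Among the 24 collagen genes above 4 on some array, 46 groups of 5 rats that were not near background were examined for a single rat far from the others of its strain, and 4 held one, where chance marks about 5% of groups. A rat was taken as far apart when its gap to the nearest rat of its strain exceeded 0.71 of the whole range of the strain (Dixon's criterion). In *Col2a1*, ACI rat 1 (6.07) lay above the next ACI rat (5.36), with a gap of 0.724 of the range. In the same gene, BN rat 4 (4.61) lay above the next BN rat (3.55), with a gap of 0.774 of the range, and the other BN rats were near background. In *Col5a1*, ACI rat 1 (6.52) lay above the next ACI rat (6.13), with a gap of 0.796 of the range, toward the BN values. In *Col9a2*, BN rat 5 (4.51) lay above the next BN rat (3.94), with a gap of 0.781 of the range. *Col2a1* was called without ACI rat 1 and without BN rat 4, and *Col5a1* was called without ACI rat 1.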

How the results depend on the processing

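The median difference over all collagens stayed below 0 under every alternative, between -0.22 and -0.10 when single rats were left out, at -0.01 within ID series H and at -0.74 with the filter, which leaves out the genes near background. Leaving out 1 rat gave 3 collagens higher in ACI each time and 4 to 11 higher in BN, 0 to 4 of them fibrillar, 1 to 2 FACIT, 1 of type IV and 0 of type VI. The 7 collagens higher in BN became 11 with a filter at a mean of 4, with centring, at an unadjusted p under 0.05 by Student's test and without BN rats 4 and 5 (chosen after seeing the data), and 13 with array weights. The shares of all genes called higher in BN were 16.5% with the filter, 13% with centring, 17.7% by unadjusted Student's test, 15.6% without those rats and 20.2% with array weights, against 9.12% with none of these. The single fibrillar call in BN became 4 with the filter, centring, array weights, unadjusted Student's test and without BN rats 4 and 5, 3 with the mean of all probe sets, and 2 with quantile normalization or the animal ID series as a block. For type VI the count became 1 with array weights and without BN rats 4 and 5. All these counts were 0 within ID series H, which has 2 rats of each strain. In the lists of genes acting on collagen (20, 6, 22, 6, 11 and 8 genes measured), 3 genes were called higher in ACI and 21 higher in BN. These became 5 and 38 with array weights, when 15.9% and 20.2% of all genes were called, and 0 and 0 within series H. Unadjusted Student's test gave 35 higher in BN, when 17.7% of all genes were. Leaving out 1 rat gave 3 to 5 and 14 to 29, when the shares of all genes ran from 5.58% to 8.1% and from 6.17% to 11.7%. Student's test after Benjamini-Hochberg adjustment called 3 and 7 collagens. With a trended robust variance *Col9a3* lost its call (adjusted p = 0.0509), which left 2 collagens higher in ACI, and quantile normalization added *Col7a1*, near background in both strains, to make 4.

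Replicate numbers did not pair the rats: same-numbered rats of both strains correlated at 0.11, -0.13, -0.10, 0.23 and -0.25 in their deviations from the strain mean, and no rat correlated best with its own number. With the replicate number as a block, 2 collagens were called higher in ACI (*Col9a3*, *Col17a1*) and 2 higher in BN (*Col4a5*, *Col13a1*), when 4.14% and 4.55% of all genes were, 0 of them fibrillar and 0 FACIT, and 10 genes of the lists were higher in BN. *Col13a1* differed by -1.82 with adjusted p = 0.015 under the block.

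Directions turned in values that were not called, except *Col2a1*, which was -0.01 without probe sets shared between transcripts, where a probe set near background stands for the gene. *Col4a1* was 0.006 with the mean of its probe sets and ran from -0.27 to 0.09 when 1 rat was left out, at 0.0935 without ACI rat 3 and 0.055 without BN rat 2. *Col6a1* was 0.29 and *Col6a3* 0.67 within series H. *Col6a2* was 0.53 within series S, 0.32 with array weights and 0.054 without BN rats 4 and 5, and ran from -0.29 to 0.37 when 1 rat was left out, at 0.37 without ACI rat 5, 0.21 without BN rat 3 and 0.0065 without BN rat 4 or BN rat 5. The causes were not tested. Over the single genes, 422 of the alternative values kept their direction and their side of the threshold, 31 lost the call, 34 gained it and 13 turned. For the 17 collagens near background in both strains, the arrays gave no level above it.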

Other observations

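Markers of pericytes and smooth muscle averaged 6.57 to 6.98 in ACI rats and 6.54 to 6.92 in BN rats over 10 genes, and the list was split. The mean was higher in ACI for 5 genes, lower for 4 and the same for 1. *Tagln* and *Cnn1*, proteins of the contractile apparatus, were called higher in ACI by 0.44 and 0.51. None was called lower, although the largest difference in that direction was -1.35. Schwann cell markers averaged 6.81 to 7.49 in ACI rats and 6.03 to 6.97 in BN rats over 3 genes, with *Mbp* (myelin basic protein) called higher in ACI by 1.76 (adjusted p = 0.0473 from limma). Keratinocyte markers averaged 3.15 to 3.36 in ACI rats and 2.87 to 3.10 in BN rats over 5 genes, 4 of them near background in both strains. The fifth, *Krt10*, a keratin of differentiated epidermis, was called higher in ACI by 1.45 (adjusted p = 0.0241 from limma), with every ACI rat (6.37 to 7.66) above every BN rat (4.91 to 6.33).

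Neighbouring collagen genes on the chromosome could be set side by side. *Col6a1* and *Col6a2*, on rat chromosome 20 with 97070 bases between them, differed by -0.43 and -0.02. *Col6a6* and *Col6a5*, on chromosome 8 with 10370 bases between them, differed by -1.33 and -0.15, and neither was called. *Col9a1* and *Col19a1*, on chromosome 9 with 5695 bases between them, were both near background.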
